A study of Mus musculus with 16 samples.

Results

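The cytosolic ribosomal proteins were followed across 4 groups of mouse hippocampus. They were taken as the genes whose annotated symbol begins with Rpl or Rps and a digit, or with Rplp, without the Rps6k kinases and pseudogene symbols. Each gene was represented by its probe with the highest mean over the 16 arrays, and to be kept, it had to be detected (detection p below 0.05) on 3 arrays or more. The rule matched 64 genes with 94 probes, and 58 genes passed the detection filter, out of 12020 named genes that passed it in all.

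Total RNA of the hippocampus of male C57BL/6J mice was measured on 16 Illumina bead arrays. The animals were 2 or 12 months old. An osmotic minipump under the skin delivered either Δ9-tetrahydrocannabinol (THC), the cannabis constituent that acts on cannabinoid receptors, over 28 days with a daily dose of 3 mg per kg, or its vehicle of ethanol, cremophor and saline. All mice, controls included, carried a pump, went through a maze test between days 33 and 41 and were killed on day 46, so RNA was taken after drug delivery had ended. At 2 months each treatment had 3 arrays, and at 12 months each had 5. The labels do not say how arrays and mice correspond, so p-values measure the spread between these arrays, whose small number sets the precision.

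A cytosolic ribosome is built from a large 60S and a small 40S subunit, each made of ribosomal RNA and many proteins that are mostly present in 1 copy per ribosome. In mammals, most messages for these proteins start with a run of pyrimidines at the 5′ end, the 5′ TOP motif, through which the mTOR pathway and the RNA-binding protein LARP1 control their translation. In neurons, ribosomes also lie in dendrites and axons, and protein synthesis is needed for lasting changes of synapses. The arrays measure the messages, not the proteins or their translation.

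Of the 58 members, 27 are 60S proteins, 20 are 40S proteins and 3 form the P stalk, the flexible arm of the large subunit that recruits translation factors. Another 6 are paralogs of ribosomal proteins (Rpl22l1, Rpl3l, Rpl7l1, Rpl36al, Rps27l and Rps4l). The rule also took Rps19bp1, a regulator of the deacetylase SIRT1, and Rps23rg1, a retroposed mouse gene, and these 2 genes do not encode ribosome subunits. Of the 64 genes, 6 did not pass. Rpl14, Rpl39l, Rpl6, Rps20 and Rps23 were detected on 0 arrays and Rpl17 on 1 array, each through its single probe. A probe at background gives no measure of the message, and these 6 genes were left out of all results. In all, 54 of the 58 members were detected on all 16 arrays. RefSeq lists pseudogenes named for 43 of the members, 212 pseudogenes in total, and whether the probes also bind such copies was not tested.

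The stretch around the annotated transcription start was read for 49 members whose promoter is in the RefSeq table of the mouse assembly GRCm38.p6. The lines below give 30 bases, 15 before the start and 15 from the start on, for members that carry the results that follow. They are read 5′ to 3′ on the coding strand, the one that reads like the message. Capitals mark the longest run of at least 7 pyrimidines (C or T), and a line without capitals has no such run. Rpl38 and Rps12 are among the steadiest members, Rps15a and Rpl7a had the smallest p in the test over the 4 groups, and Rpl22l1, Rpl39, Rpl26 and Rps3a1 differed between array slides.
Rpl38, chr11:114668565-114668594, plus strand: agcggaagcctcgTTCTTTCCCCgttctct
Rps12, chr10:23787195-23787224, minus strand: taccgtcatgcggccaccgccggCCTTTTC
Rps15a, chr7:118116133-118116162, minus strand: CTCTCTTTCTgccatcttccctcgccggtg
Rpl7a, chr2:26910792-26910821, plus strand: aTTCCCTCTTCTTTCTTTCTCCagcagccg
Rpl22l1, chr3:28805493-28805522, plus strand: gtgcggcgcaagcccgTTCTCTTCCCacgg
Rpl39, chrX:37085208-37085237, minus strand: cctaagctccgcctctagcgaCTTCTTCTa
Rpl26, chr11:68901551-68901580, plus strand: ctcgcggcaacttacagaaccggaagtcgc
Rps3a1, chr3:86142654-86142683, minus strand: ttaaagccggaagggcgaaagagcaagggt

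A pyrimidine run of at least 7 bases lay in this window in 25 of 49 members (51.0%), against 18.3% of 17492 protein-coding promoters. The motif CTTTCC on the coding strand lay in the window of 5 members (10.2%), Rpl38 among them, against 1.32% of all promoters. The motif CTTCCG, searched on both strands over 300 bases, was in 34 members (69.4%) and in 21.5% of all promoters. TATAAA in the 40 bases before the start was found in 1 member (2.04%) and in 3.17% of all promoters. CTTCCG can overlap a pyrimidine run. These are matches of letters in fixed windows around an annotated start and do not show a site in use.

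The hippocampal label was checked against markers of its cell layers. The granule cell marker Prox1, the CA1 marker Wfs1 and the CA3 and CA2 marker Bok were detected on all 16 arrays, while the granule cell markers Calb1 and Tdo2 and the CA2 marker Pcp4 were detected on 0 arrays through the probes used. Markers of neighbouring tissue were also present and varied between arrays. The mean of 11 choroid plexus genes ran from 6.06 to 9.42 in young vehicle, 5.83 to 6.81 in young THC, 5.56 to 7.42 in old vehicle and 5.47 to 8.72 in old THC arrays (log2 intensity). The mean of 8 thalamic genes ran from 6.77 to 7.65, 7.15 to 9.00, 7.46 to 8.13 and 7.22 to 8.50 in the same order. The mean of 4 blood genes ran from 9.75 to 10.91, 10.05 to 10.74, 10.82 to 11.97 and 10.45 to 11.24. The thalamic marker Synpo2 and the fibroblast marker Col3a1 were detected on 0 arrays. The part of these tissues in the members' differences was not tested. In whole tissue, fewer cells of a type and less RNA per cell cannot be told apart.

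The arrays lay on 4 slides, meaning the chip number that groups of 4 array names share. Young vehicle arrays were on slides 1, 2 and 4, young THC arrays on slides 2, 3 and 4, old vehicle arrays on slides 1, 2 and 4, and old THC arrays on slides 1, 3 and 4. The 4 arrays of slide 1 stood apart in the members. The first principal component of the 58 members, computed without scaling so that the most variable members weigh most, held 58.7% of their variance. Rpl22l1, among the most variable, was not detected on slide 1. The first component of all tested probes held 32.3%. On the members' component the slide 1 arrays lay between -2.43 and -1.68 and the other 12 arrays between -0.51 and 1.44. Values with the slide as a fixed block are therefore given beside differences of named members that this moves by more than 1.5 times. For named genes outside the members no such values are given. Between 41.1% and 45.9% of the 45281 probes were detected per array.

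Taken over all members, the mean level of the ribosomal protein messages after quantile normalization differed little across the 4 groups. Before normalization, the scanner values had group means of 11.06 ± 0.37 (SD) in young vehicle and 11.245 ± 0.13 in young THC arrays. They were 10.97 ± 0.21 in old vehicle and 11.17 ± 0.24 in old THC arrays, and the groups overlapped. After normalization, the mean of the 58 members was 10.82, 10.90 and 10.96 in the young vehicle arrays, and 10.96, 10.91 and 10.89 in the young THC arrays. Its group means were 10.90 ± 0.07 (SD, n = 3) in young vehicle, 10.92 ± 0.04 (n = 3) in young THC, 10.85 ± 0.02 (n = 5) in old vehicle and 10.87 ± 0.04 (n = 5) in old THC mice, in log2 intensity. The groups overlapped in every comparison made here, while young THC and old vehicle arrays, which no comparison sets against each other, did not, and the lowest array of each of the 3 groups with an array on slide 1 was its slide 1 array (the mean of slide 1 was 10.82, that of slides 2 to 4 between 10.89 and 10.90).

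**Figure D1:**
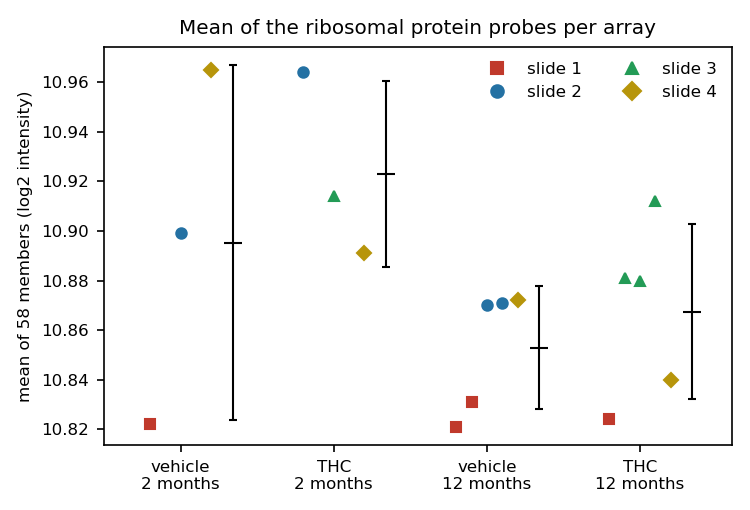
Mean log2 intensity of the 58 members, after quantile normalization, on each of the 16 arrays, by group. Marker shape and colour give the slide, and the black bar is the group mean ± SD; the groups differ by less than 0.1 in their means, and the slide 1 arrays lie between 10.82 and 10.83.

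Each member was tested in a linear model over all 22625 probes that passed the detection filter (limma, moderated variances, Benjamini-Hochberg adjustment over all probes, two-sided). In the test over the 4 groups, 0 members passed an adjusted p under 0.05, against 0.00442% of all probes (1 probe). At an unadjusted p under 0.05 there were 2 members, against 6.26% of all probes. In each of the 6 comparisons between groups 0 members passed as well. Of all probes, 0% passed in 5 of these comparisons and 0.00442% where old THC mice were set against young vehicle ones. The members also varied little within groups. Their median pooled SD was 0.18 (log2), against 0.26 for all probes, and for the 42 members with a mean above 10 it was 0.16, against 0.18 for the 2570 probes that bright. This is a description, since bright probes vary less on these arrays.

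In vehicle mice the members were, by small amounts, mostly lower at 12 than at 2 months, without any passing the test. The log2 difference was below 0 for 43 members and above 0 for 15 (25.9%, against 49.5% of all probes), with a median of -0.05 against -0.0020 for all probes. With scanner values centred on each array's median, without background correction or quantile normalization, 9 were above and 49 below 0. In that setting, called median-centred here, the median was -0.08 for the members and -0.01 for all probes. In the fit with quantile normalization, 23 of 27 60S proteins and 15 of 20 40S proteins were below 0. At an unadjusted p under 0.05 there were 2 members (3.45%, against 4.56% of all probes), 1 higher (1.72%, against 2.61%) and 1 lower (1.72%, against 1.95%). With the slide as a fixed block the members' median was -0.05. Within slides it was 0.01 on slide 1, -0.04 on slide 2 and -0.08 on slide 4, where each slide holds 1 young array. The 95% interval of the difference lay between -0.5 and 0.5 for 37 members (63.8%, against 43.8% of all probes), so a change of more than that size is outside the interval for these members.

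Several marker lists had larger median differences than the members in the same comparison, with 0 genes of any list past the adjusted threshold (limma). All 4 blood genes and all 11 meningeal and fibroblast genes were above 0 in the age comparison of vehicle mice, with medians of 1.08 and 0.88. All 8 thalamic genes were above 0 as well, with a median of 0.60. The 8 myelin genes and the 8 striatal genes were all below 0, with medians of -0.46 and -0.29, and so were 10 of 11 choroid plexus genes, with a median of -1.05. Of the hippocampal lists, all 7 CA3 and CA2 genes were below 0, with a median of -0.55, while granule cell and CA1 genes had medians of 0.15 and 0.01. Astrocytes, microglia, endothelium and inhibitory neurons had medians of 0.10, 0.04, -0.03 and 0.03. The part of these tissues in the members' small differences was not tested.

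Rps15a, a protein of the small subunit, had the smallest p of the members with age. Its log2 intensity was 10.20, 10.05 and 9.93 in young vehicle arrays, and 10.51, 10.63, 10.42, 10.51 and 10.52 in old vehicle arrays. Every old vehicle array lay above every young one. The log2 difference was 0.46 (SE 0.16, adjusted p = 1.00), one of 2 members whose groups did not overlap; of all probes, 1.44% were without overlap and higher and 1.22% without overlap and lower.

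The other member without overlap was Rps25, a small subunit protein that viral internal initiation sites need. Its values were 11.06, 11.17 and 11.30 in young vehicle and 10.76, 10.88, 10.89, 11.01 and 11.06 in old vehicle arrays, so the highest old value lay just under the lowest young one. The log2 difference was -0.26 (SE 0.16, adjusted p = 1.00). Rps25 is also among the members lower on slide 1, which holds 2 of the 5 old and 1 of the 3 young vehicle arrays.

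Rpl7a, a large subunit protein, had a log2 difference of -0.31 with age (SE 0.13, adjusted p = 1.00). It measured 5.45, 5.24 and 5.38 in young vehicle arrays and 4.95, 4.99, 5.27, 5.00 and 5.03 in old vehicle arrays, where 1 old array reached the young range. This is a dim probe, detected on 15 of 16 arrays, and without background correction the difference was -0.09. Rplp0, the scaffold of the P stalk, had a difference of 0.24 (SE 0.16), and Rpl22, a large subunit protein that also binds viral RNA, one of -0.23 (SE 0.14), with overlapping groups. Rps7, a small subunit protein, had a difference of -0.17 (SE 0.12).

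THC at 12 months left the members close to vehicle. Of the 58 differences 35 were above 0 (60.3%, against 48.8% of all probes) and 23 below, with a median of 0.02 against -0.0048. With median-centred arrays 32 were above and 26 below, with medians of 0.02 for the members and 0.02 for all probes. With the slide as a fixed block the median was -0.01, within slide 1 it was -0.01 and within slide 4 -0.03. At an unadjusted p under 0.05 there was 1 member (1.72%, against 4.77% of all probes), which was lower; of all probes, 1.87% were higher and 2.91% lower. The 95% interval lay between -0.5 and 0.5 for 45 members (77.6%, against 57.3% of all probes). No member had groups without overlap, against 0.194% of all probes for higher and 0.433% for lower values.

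Marker lists differed in this comparison too, some by more than the members and some not. All 8 myelin genes and all 8 striatal genes were above 0, with medians of 0.47 and 0.50, and all 11 meningeal genes were below 0, with a median of -0.55. The 4 blood genes were all below 0, with a median of -0.38, as were 6 of 8 thalamic genes, and 10 of 11 choroid plexus genes were above 0, with a median of 0.64. Of the hippocampal lists, 4 of 4 granule cell genes and 6 of 7 CA3 and CA2 genes were above 0, with medians of 0.47 and 0.38, and CA1 genes had a median of 0.29. Astrocytes and microglia had medians of -0.02 and -0.04, endothelium of -0.17 and inhibitory neurons of 0.11. None of these genes passed the adjusted threshold (0 in limma). Some differences of list means depended on slide 1. Leaving it out took the choroid plexus difference from 0.80 to 0.10 and the CA3 and CA2 one from 0.33 to 0.12. The striatal one went from 0.47 to 0.24. Granule cell, CA1, blood, thalamic and meningeal differences grew in size instead, to 0.61, 0.22, -0.57, -0.53 and -0.64.

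Rps15a was again the member with the smallest p. Its values in old THC arrays were 10.42, 10.24, 10.45, 10.21 and 9.63, against 10.42 to 10.63 in old vehicle arrays. The groups overlapped, and 1 THC array on slide 4 lay far below the others. The log2 difference was -0.33 (SE 0.14, adjusted p = 0.916), and without that array it was -0.19.

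Rpl7l1, a paralog of the large subunit protein Rpl7, had a difference of -0.36 (SE 0.22, adjusted p = 0.916). Its values were 8.51, 7.85, 7.76, 8.11 and 7.78 in old THC arrays and ran from 7.83 to 8.69 in old vehicle arrays. The highest value of each group was on slide 1, the difference was -0.14 with the slide as a fixed block, and the gene's second tested probe gave 0.16. Rps16 had a difference of 0.21 (SE 0.13), Rps2 one of -0.16 (SE 0.10) and Rpl24 one of -0.20 (SE 0.15), all with overlapping groups. Rpl22 and Rpl7a, which were lower with age, had differences of 0.16 (SE 0.12) and 0.20 (SE 0.11), and Rps7 one of 0.14 (SE 0.10). The age and the drug comparison share the old vehicle arrays, so an opposite sign in both is built in where those arrays are high or low.

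**Figure D2:**
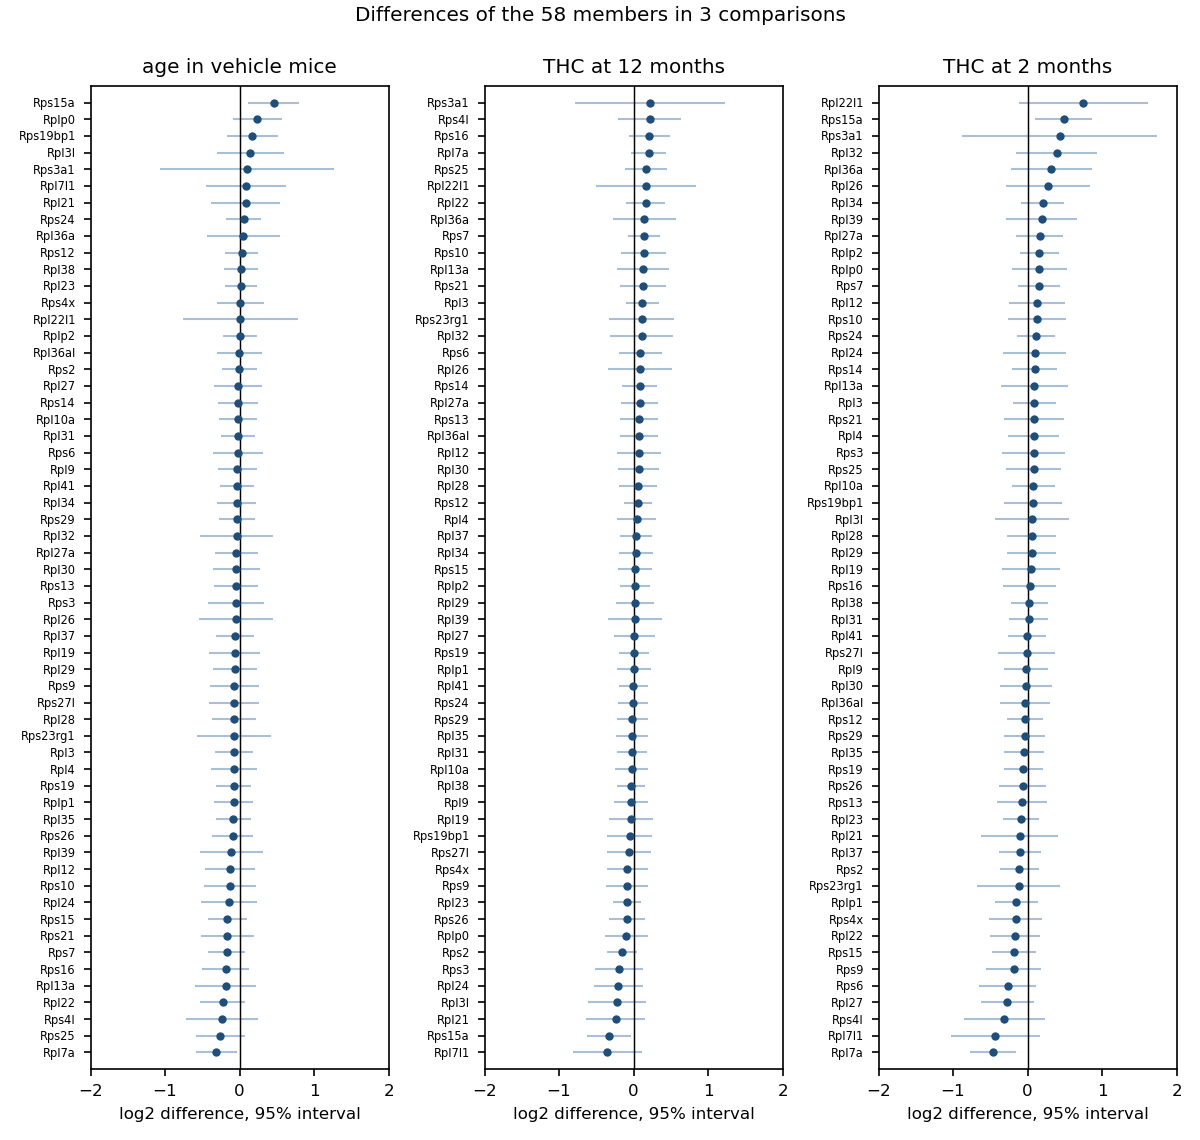
Log2 differences of the 58 members with 95% intervals for age in vehicle mice (12 minus 2 months), THC at 12 months and THC at 2 months (each THC minus vehicle), every panel sorted by its own differences. Most points lie near 0, and no member passed the adjusted threshold in any panel.

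At 2 months the THC and vehicle arrays also lay close together. The median difference was 0.04, with 32 members above 0 (55.2%, against 49.6% of all probes) and 26 below. With median-centred arrays 46 were above and 12 below, with medians of 0.14 for the members and 0.05 for all probes. The members' median was -0.0019 with the slide as a fixed block. It was 0.08 within slide 2 and -0.08 within slide 4, where each slide holds 1 array of each group. At an unadjusted p under 0.05 there were 2 members (3.45%, against 6.12% of all probes), 1 higher (1.72%, against 2.66%) and 1 lower (1.72%, against 3.46%). Without overlap there were 5 members higher (8.62%, against 5.51% of all probes) and 2 lower (3.45%, against 6.13%). The interval lay between -0.5 and 0.5 for 35 members (60.3%, against 27.9%). Among the marker lists, thalamic genes were above 0 in 7 of 8 cases, with a median of 1.08, and all 11 choroid plexus genes were below 0, with a median of -1.07, and granule cell genes were above 0 in 4 of 4 cases, with a median of 0.52. The medians of the other lists lay between -0.25 and 0.18, and 0 genes of any list passed the adjusted threshold (limma).

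Rpl7a had the smallest p, with values of 5.45, 5.24 and 5.38 in vehicle and 4.89, 4.77 and 5.01 in THC arrays. Its dim probe was detected on all 3 vehicle arrays and on 2 of the 3 THC arrays. The groups did not overlap. The log2 difference was -0.47 (SE 0.15, adjusted p = 0.781), and -0.14 without background correction. Rps15a went the other way, with 10.20, 10.05 and 9.93 in vehicle and 10.58, 10.40 and 10.65 in THC arrays, also without overlap. Its difference was 0.48 (SE 0.18, adjusted p = 0.781). Age in vehicle mice and THC at 2 months share the young vehicle arrays. The same sign in both is therefore built in where those arrays are high or low.

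Rpl22l1, which in mice is held down by its paralog Rpl22, measured 4.41, 5.64 and 5.80 in vehicle and 5.89, 6.08 and 6.13 in THC arrays. The difference was 0.75 (SE 0.41, adjusted p = 0.781), the groups did not overlap, and the low vehicle array is the one on slide 1, where the probe was not detected. Without that array the difference was 0.31, and with the slide as a fixed block 0.30. Rpl32 had a difference of 0.39 (SE 0.26), of 0.12 without the same array and of 0.17 with the block. Rpl34, with 11.56, 11.68 and 11.68 in vehicle and 11.90, 11.92 and 11.71 in THC arrays, had a difference of 0.20 (SE 0.14), also without overlap, and of 0.11 with the block. Rps6, the small subunit protein that S6 kinase phosphorylates, had a difference of -0.27 (SE 0.18), Rpl27 one of -0.27 (SE 0.17) and Rpl7l1 one of -0.43 (SE 0.28), all with overlap. Each rested largely on 1 THC array: without array 3, Rps6 was at -0.09 and Rpl27 at -0.05, and without array 2, Rpl7l1 was at -0.13. With the slide as a fixed block Rpl7l1 was at -0.20.

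The difference of the THC responses at both ages was tested directly, and 0 members passed. The median over members was -0.01 against -0.01 for all probes, with 27 members above and 31 below 0. With median-centred arrays 9 were above and 49 below, with medians of -0.15 for the members and -0.03 for all probes. By p, 2 members (3.45%) had an unadjusted p under 0.05, against 5.21% of all probes (2.77% higher and 2.44% lower). The 95% interval lay between -0.5 and 0.5 for 22 members (37.9%, against 9.73%). The 2 members were Rps15a, at -0.81 (SE 0.23, adjusted p = 0.949), and Rpl7a, at 0.67 (SE 0.18, adjusted p = 0.949). Without the low old THC array Rps15a was at -0.67, and without background correction Rpl7a was at 0.20. Rpl7a was detected on 2 of the 3 young THC arrays. With the slide as a fixed block Rps15a was at -0.86 (SE 0.22) and Rpl7a at 0.68 (SE 0.19), with adjusted p of 0.337 and 0.354. Rpl22 was at 0.33 (SE 0.20) and Rpl24, which bridges the subunits, at -0.30 (SE 0.25), or -0.12 without young THC array 3.

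**Figure D3:**
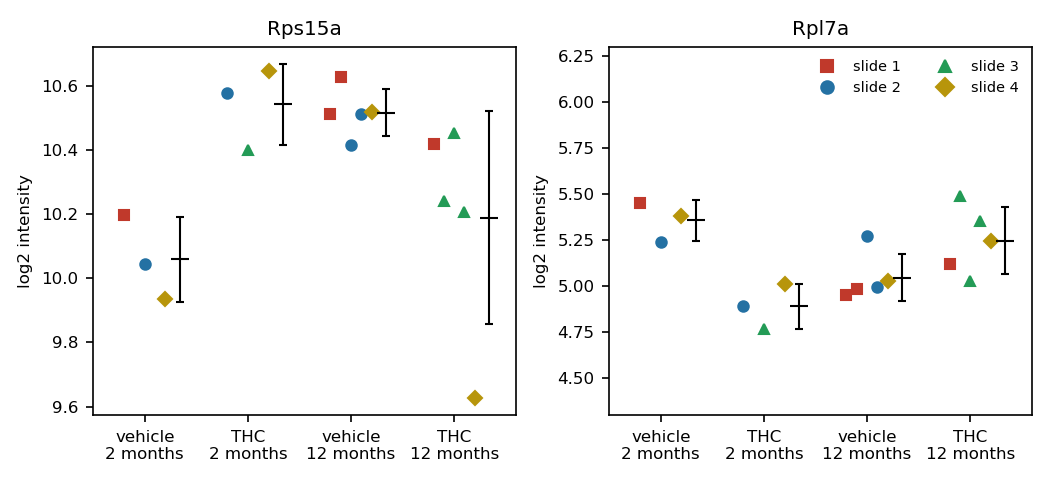
Log2 intensity of Rps15a and Rpl7a on the 16 arrays by group, with marker and colour for the slide and the group mean ± SD as a black bar; each panel has its own axis range. Rps15a is lowest in young vehicle arrays and in 1 old THC array. The group means of Rpl7a are highest in young vehicle and old THC mice, while old vehicle array 3 (5.27) lies within the ranges of both.

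In THC mice, age gave a median of -0.05 over the members against -0.02 for all probes, with 18 above 0 (31.0%, against 46.8% of all probes) and 40 below. With median-centred arrays 7 were above and 51 below, with medians of -0.23 for the members and -0.04 for all probes. At an unadjusted p under 0.05 there were 4 members (6.90%, against 7.33%), 2 of them higher (4.62% of all probes) and 2 lower (2.71%), namely Rpl7a at 0.36, Rps6 at 0.34, Rpl24 at -0.44 and Rps15a at -0.35, with adjusted p in limma between 0.524 and 0.678. Groups did not overlap for Rpl7a, which was higher (3.67% of all probes), and for Rpl39 and Rps7, which were lower (2.7%). Rpl7a was detected on 2 of the 3 young THC arrays, the low side of this comparison. The interval lay between -0.5 and 0.5 for 39 members (67.2%, against 40.8%). Old THC against young vehicle mice, the comparison of treated old animals with untreated young ones, gave a median of -0.04 against -0.01. Here 21 members were above 0 and 37 below. With median-centred arrays 13 were above and 45 below, with medians of -0.06 for the members and 0.01 for all probes. In limma 0 members had an unadjusted p under 0.05, against 4.48% of all probes (2.29% higher and 2.2% lower). The interval lay between -0.5 and 0.5 for 45 members (77.6%, against 42.4%). Rpl24 had the smallest p, at -0.34 (SE 0.18), and Rps2 was the only member without overlap, at -0.16 (SE 0.11), with 13.45, 13.37 and 13.42 in young vehicle and 13.11 to 13.36 in old THC arrays. Of all probes, 2.19% were lower and 1.51% higher without overlap here.

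No P stalk protein passed the test in any comparison (0 of 3 in limma). Rplp1 and Rplp2, whose dimers bind elongation factors, had differences of -0.08 and 0.00 with age in vehicle mice and of 0.00 and 0.02 with THC at 12 months, or 0.09 and -0.03 with the slide as a fixed block. With THC at 2 months they had differences of -0.15 and 0.16, or -0.06 and 0.10 with the block. There the groups of Rplp2 did not overlap, as for 5.51% of all probes that were higher. Rplp0, often used as a reference gene, had differences of 0.24, -0.10 and 0.16 for age in vehicle mice, THC at 12 months and THC at 2 months, with intervals that all include 0, and of 0.23, 0.01 and 0.27 with the slide as a fixed block. The steadiest members were Rpl23, Rps12 and Rpl38, with pooled SDs of 0.06, 0.07 and 0.07 (log2). Over the 16 arrays Rpl23, whose protein also binds the p53 regulator MDM2, ran from 14.44 to 14.69, close to the highest scanner values of the arrays (maxima of 14.70 to 15.13), where the scale leaves little room for a higher value. Rps12 ran from 13.06 to 13.31. Rps3a1 had the largest pooled SD, 0.88, and ran from 6.48 to 9.20.

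None of the 6 paralogs passed the test in any of the 6 comparisons (0 in limma), and the difference between a paralog and its parent gene was not tested. With THC at 2 months, Rpl22 and Rpl22l1 had differences of -0.17 and 0.75, or -0.08 and 0.30 with the slide as a fixed block. Rpl3, a core large subunit protein, and its muscle paralog Rpl3l had differences of 0.09 and 0.06, or 0.0037 and 0.16 with the block. Rps4x and Rps4l, both forms of a small subunit protein, had differences of -0.16 and -0.32, or -0.03 and -0.11 with the block. Rpl36a and Rpl36al had differences of 0.32 and -0.03, and of 0.08 and 0.08 with the block. With the block, 6 of these 8 values were smaller in size, while those of Rpl3l and Rpl36al were larger.

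Rps19 and Rps14, whose reduced dosage is linked to anaemia in people, had differences between -0.08 and 0.10 for age in vehicle mice and THC at either age, and between -0.09 and 0.07 with the slide as a fixed block. Rpl13a, which also silences inflammatory messages, had differences between -0.19 and 0.13, and between -0.15 and 0.02 with the block.

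Members with several probes did not always move alike. In 16 genes more than 1 probe was tested, and the signs of the probes' differences disagreed in 9 of them for age in vehicle mice and in 8 for THC at 12 months. For Rpl7l1 the probes gave -0.36 and 0.16 for THC at 12 months.

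The clearest pattern among the members was the slide, and this contrast was added after the data had been seen. With the group in the model, 24 of 58 members (41.4%) passed an adjusted p under 0.05 between slide 1 and slides 2 to 4, against 32.7% of all probes and 30.4% of probes with a mean above 10. Of the members 9 were higher on slide 1 (15.5%, against 16.1% of all probes) and 15 lower (25.9%, against 16.6%). Arrays did not overlap for 5 members higher (8.62%, against 3.67%) and 10 lower (17.2%, against 7.37%). Rpl22l1, which passed the detection filter only through slides 2 to 4, is among the 24, the 15 and the 10. In the scanner values before normalization, the members' mean was 10.77 on slide 1 and 11.21 on slides 2 to 4. Between 41.1% and 42.2% of probes were detected on the slide 1 arrays, and between 41.6% and 45.9% on the others. The part of this in the slide differences was not tested. What differed in the making of slide 1 is not given in the sources used here.

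**Figure D4:**
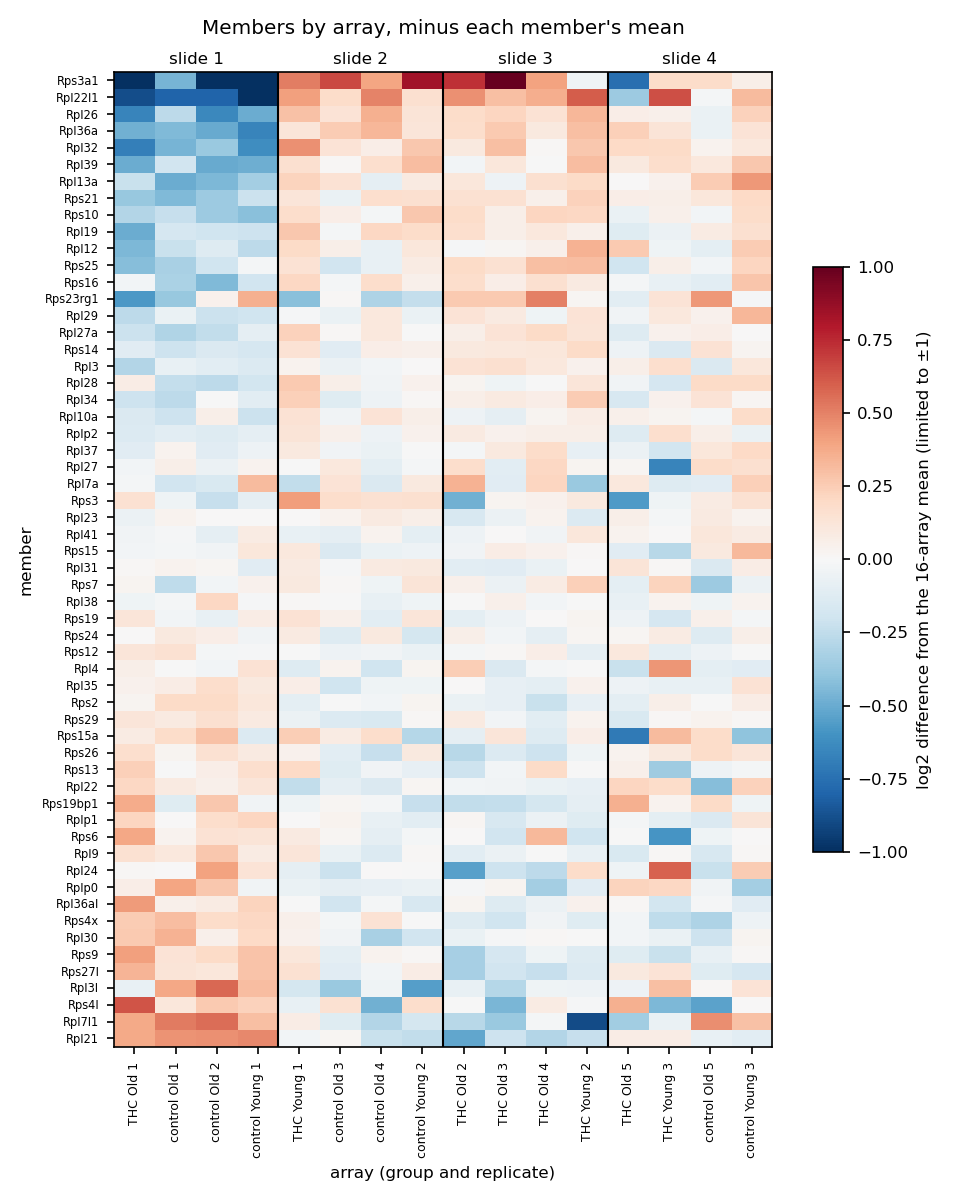
Log2 intensity of each member on each array minus the member's mean over the 16 arrays, with arrays ordered by slide and members by their slide 1 difference (blue below, red above, limited to ±1). The 4 slide 1 columns are below the mean in the upper rows, from Rps3a1 down, and above it in the lowest rows, from Rpl21 up.

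Rps3a1, a small subunit protein, had the largest slide difference, -1.53 (SE 0.25, adjusted p = 0.000498). It measured 6.48, 6.98, 7.55 and 6.67 on slide 1, against 7.25 to 9.20 elsewhere, and 1 old THC array of slide 4 fell within the slide 1 range. Rpl26, which also binds the p53 message, measured 10.98, 10.82, 11.22 and 10.84 on slide 1 and 11.41 to 11.83 on the other arrays, a difference of -0.69 (SE 0.10, adjusted p = 0.000232). Rpl32 differed by -0.68 (SE 0.10), Rpl36a by -0.69 (SE 0.09) and Rpl39, a small protein of the exit tunnel, by -0.56 (SE 0.10), all without overlap. In smaller steps, Rps21, Rps10, Rpl13a, Rpl19, Rps25, Rpl12, Rpl27a, Rps16 and Rpl29 were lower too, by -0.50 to -0.27.

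Rpl22l1 was detected on all 12 arrays of slides 2 to 4 and on 0 of the 4 arrays of slide 1. With background-corrected values it was at least 1.78-fold higher on slides 2 to 4. This takes for each slide 1 array the lowest signal of a detected probe, or the probe's own value if that was higher. The log2 difference in the model was -1.14 from the values as measured, and -0.37 without background correction. Rpl22l1 is counted among the members lower on slide 1. It passed the detection filter only through slides 2 to 4, so its p is not given. The group means on the log2 scale were 5.78 on slides 2 to 4 and 4.59 as measured on slide 1.

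Rpl21, a large subunit protein, had the largest difference among the members higher on slide 1, with 7.44, 7.33, 7.40 and 7.41 there and 6.44 to 7.03 on the other arrays. The difference was 0.62 (SE 0.09, adjusted p = 0.000271), and its other 2 probes gave 0.33 and 0.58. Rps9 differed by 0.36 (SE 0.09), Rps4x by 0.32 (SE 0.09) and Rpl30 by 0.33 (SE 0.09), all without overlap. The remaining 5 of the 9 were paralogs, namely Rpl7l1 at 0.51, Rps4l at 0.47, Rpl3l, known from muscle, at 0.39, Rps27l, a p53 target in human cells, at 0.37 and Rpl36al at 0.30. With scanner values centred on each array's median, without background correction or quantile normalization, 0 members were higher and 24 lower on slide 1. Of all 22625 probes, 109 were then higher and 5685 lower. Rpl30 went to the other side of 0, and the median of all probes moved from 0.05 to -0.11. None of the 9 fell below that median.

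**Figure D5:**
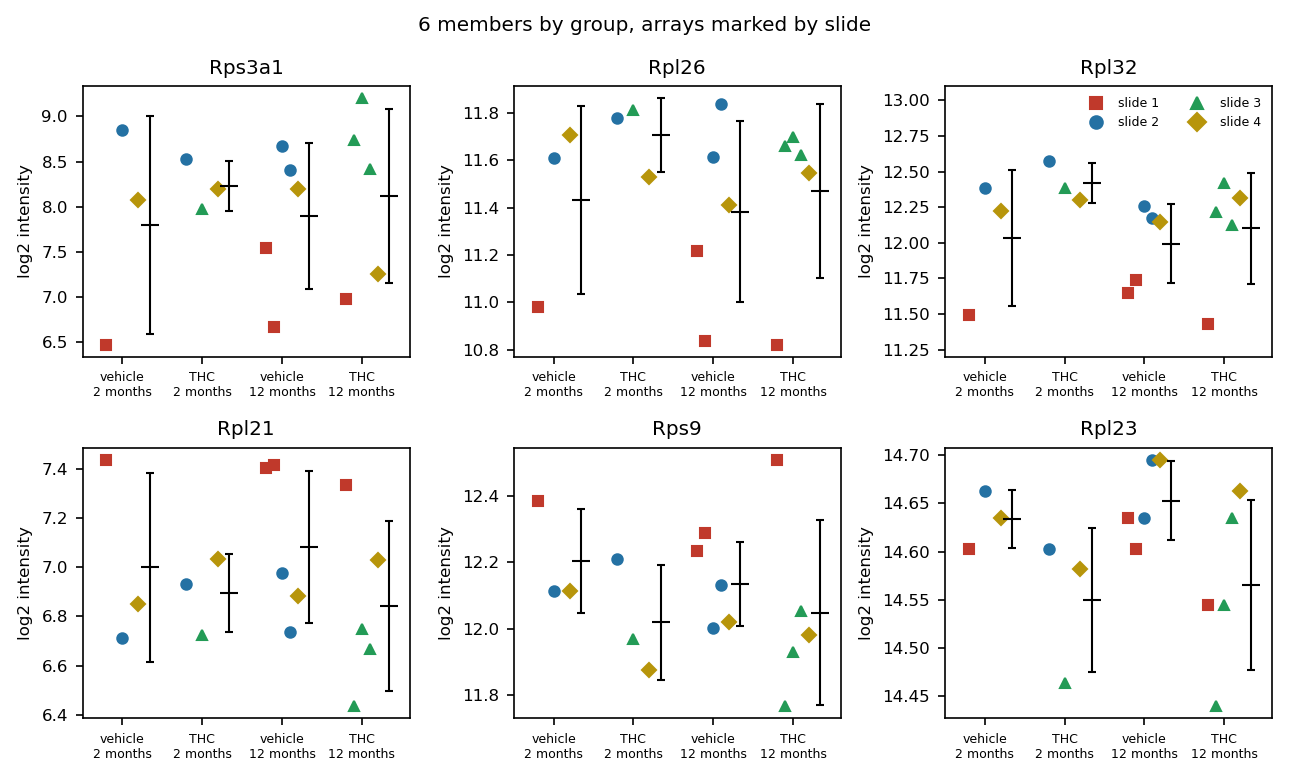
Log2 intensity of 6 members on the 16 arrays by group, with marker and colour for the slide and the group mean ± SD as a black bar; each panel has its own axis range. Rps3a1, Rpl26 and Rpl32 are low and Rpl21 and Rps9 high on slide 1 in each of the 3 groups it holds, while Rpl23 is not set apart.

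Members with a pyrimidine run in the printed window had a median slide difference of -0.13 (25 members, from -1.14 to 0.37). The -1.14 is Rpl22l1, which was not detected on slide 1. Members without a run had a median of 0.03 (24 members, from -1.53 to 0.51). Both ranges overlap widely, and the lines for Rpl26 and Rps3a1 above show that strongly slide-dependent members are found without a run. The median Pearson r between 2 members was 0.08 over the 12 arrays of slides 2 to 4 and 0.0080 over all 16 arrays, while the first component held 24.7% of the members' variance without slide 1 and 58.7% with it.

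Genes that work with the ribosome were read beside the members, and 0 of them passed the adjusted threshold in any of the 6 comparisons. Values with the slide as a fixed block are not given for them. Among 19 tested messages with a 5′ TOP motif outside the Rpl and Rps genes, 4 were above 0 with age in vehicle mice and 15 with THC at 12 months (49.5% and 48.8% of all probes), with medians of -0.06 and 0.09. The mean of this list was 9.11 to 9.22 on slide 1 and 9.39 to 9.66 on the other arrays. Its mean difference was 0.11 with THC at 12 months and 0.14 at 2 months, and 0.03 in both without slide 1. Rpsa, a small subunit protein and laminin receptor that the symbol rule does not take, had differences of 0.45 (SE 0.16) with THC at 12 months and 0.47 (SE 0.20) at 2 months, at adjusted p of 0.916 and 0.781, from a dim probe. Of 29 ribosome biogenesis genes 7 were above 0 with age in vehicle mice and 13 with THC at 12 months, with medians of -0.07 and -0.03. Ltv1, a factor of small subunit assembly, had a difference of 0.56 (SE 0.16, adjusted p = 0.916) with THC at 12 months.

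The 26 translation initiation factors had medians of -0.03 with age in vehicle mice and of -0.04 with THC at either age, with Eif3b at -0.54 (SE 0.19) for THC at 2 months. The 14 genes of the mTOR and S6 kinase pathway had medians of 0.08, -0.05 and -0.13 for age in vehicle mice, THC at 12 months and THC at 2 months, and their mean was 8.61 to 8.71 on slide 1 and 8.41 to 8.56 on the other arrays. Deptor, an inhibitor of mTOR, had differences of 1.02 (SE 0.36), -0.64 (SE 0.31) and 0.88 (SE 0.41) in these 3 comparisons, with adjusted p between 0.781 and 1.00. The age comparison shares its vehicle arrays with both THC comparisons. The 73 mitochondrial ribosomal proteins, which serve a separate ribosome, had medians of -0.09, -0.05 and -0.03, and 61 of them were below 0 with age in vehicle mice.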

How the data were processed

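The members and lists were chosen with earlier results of these data known. Per the file headers, the authors deposited scanner output with a log2 intensity and a detection p-value for every probe on every array. Array medians differed, so it was not quantile normalized between arrays. The log2 values of the authors' series matrix equalled these intensities after quantile normalization to within 0.00713, as found from the values. The submitters' processing notes name Partek. Background subtraction is not given in the sources used here. On 1 array, young vehicle array 1 on slide 1, 26 detection p cells held text. The filter ignored them, and background correction used interpolated values.

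The neqc function of limma 3.58.1 (R 4.3.3), with an offset of 16, did background correction and quantile normalization. The fit used 1 mean per group over the 22625 probes detected (p below 0.05) on 3 or more arrays, with p-values adjusted over all of them. Groups came from the labels. Members named in the text were those with the smallest p per comparison, the steadiest and most variable ones, the P stalk, paralogs, genes known outside the ribosome and some probe disagreements. Members named for the slide were chosen after their values were seen. The slide contrast was added after the data were seen. The fit was tested on simulated data. Probe genes came from the platform annotation, where 34885 of 45281 probes have 1 symbol, 18 several and 10378 none, and all 58 members matched RefSeq by Entrez ID. Promoters were taken from RefSeq. Arrays of the same group correlated at r 0.959 to 0.990 across probes. Alternatives were other normalizations, filters, slide blocks, variance models, probes, thresholds and arrays left out. Plots used matplotlib 3.10.9 (Python 3.11.15).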

Additional observations from a re-analysis of the deposited data

Results flagged for a closer look

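Among 76 sets of values, each a member named by rule in a group of 5 arrays, 8 had 1 array whose gap to its nearest neighbour took more than 0.71 of the whole range, where chance flags about 5% of such groups. In old vehicle mice, Rps12 was high on array 1 at 13.31, with the next at 13.14 (gap share 0.826). Rpl7a was high on array 3 at 5.27, with the next at 5.03 (0.762). Rpl38 was high on array 2 at 14.17, with the next at 13.95 (0.746).

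In old THC mice, 4 members stood apart on array 1, the group's only array on slide 1. Rpl26 was low at 10.82, with the next at 11.55 (0.830). Rpl3 was low at 13.19, with the next at 13.55 (0.786). Rpl36a was low at 10.77, with the next at 11.35 (0.782). Rpl36al was high at 11.33, with the next at 10.93 (0.722). Rpl3l was low on array 3 at 5.03, with the next at 5.24 (0.872), close to background.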

How the results depend on the processing

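The count of members past the threshold was 0 in all 208 alternatives over the 6 comparisons and the 4-group test, and 169 of 184 medians moved by less than the spread between arrays. For THC at 2 months the median was 0.14 with median-centred arrays (0.05 for all probes), -0.0156 without slide 1 and -0.0129 with the next brightest probe. Within slide 2 it was 0.0837 and within slide 4 -0.0843. Median centring gave -0.15 for the difference of the THC responses, with -0.03 for all probes. For age in THC mice it gave -0.23, with -0.04 for all probes. The members' median for age in THC mice was 0.01 within slide 4. Age in vehicle mice was 0.00761 within slide 1 and THC at 12 months -0.0319 within slide 4. Old THC against young vehicle was -0.0869 with the next brightest probe, 0.0337 within slide 1 and -0.13 within slide 4. Leaving out 1 array at a time gave medians of -0.0156 (without young vehicle array 1) to 0.0514 for THC at 2 months and of -0.0629 to 0.0109 (without young vehicle array 3) for old THC against young vehicle. Of 1003 gene values, 3 changed sign. Leaving out 1 array put Rpl36a in old THC against young vehicle between -0.0699 (without young vehicle array 1) and 0.328, and Rpl3l with age in vehicle mice between -0.110 (without young vehicle array 2) and 0.317. Rpl7l1 with THC at 12 months was 0.16 by the next brightest probe. Against slide 1, 9 higher and 15 lower members became 0 and 24 with median centring. Of all probes, 3638 higher and 3759 lower became 109 and 5685. Leaving out 1 array gave 3 to 10 members higher and 10 to 15 lower. The 3 came without old THC array 1, where 1765 of all probes were higher and 2409 lower. Causes of these shifts were not tested. At an unadjusted p under 0.05, leaving out 1 array gave 0 to 2 members for age in vehicle mice (2 with all arrays). It gave 0 to 3 for THC at 12 months (1), 1 to 3 for THC at 2 months (2) and 2 to 3 for the difference (2). It gave 1 to 4 for age in THC mice (4) and 0 to 1 for old THC against young vehicle (0). Of all 22625 probes, the counts were 863 to 1512, 706 to 2174, 872 to 1973, 756 to 1586, 1151 to 1996 and 774 to 1614 in the same order. Leaving out 1 array moved 20 of 36 values of named members, none of them called, by more than 1.5 times. No paired analysis was possible because the columns carry no replicate numbers; the slide, read from the array names, served as the block.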
